A study of Mus musculus with 4 samples.

Results

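The markers described here are 32 genes that mark the blood vessel wall: 20 of endothelial cells, 6 of pericytes and 6 of contractile smooth muscle. They were matched by gene symbol in a table of 54446 annotated mouse genes, and all 32 were found once. They were followed in 4 RNA-seq libraries of tongue-derived epithelial cells of C57BL/6 mice, grown in RPMI-1640 with 10% fetal bovine serum. Of these, 2 libraries carry the genotype label otub2-knockout systemically and are called library 3 and library 4 here, and 2 are labelled Wildtype and are called Control 1 and Control 2. Otub2 encodes a deubiquitinase. The labels give no age, no allele and no number of animals or cultures, so p-values measure only the spread between these libraries, which may be technical.

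Vessels are lined by endothelial cells, which sense vascular endothelial growth factor (VEGF) through receptor tyrosine kinases and angiopoietins through Tek. They are held together by cadherin, claudin and immunoglobulin-type adhesion proteins. Pericytes wrap capillaries and smooth muscle cells wrap larger vessels, and the contractile genes of smooth muscle are controlled by serum response factor, which binds CArG boxes in their promoters. A stratified epithelium such as that of the tongue has no vessels of its own, and vessels run in the connective tissue beneath it. Several of the markers are shared with other cells: Acta2 with activated fibroblasts, Des, Synpo2 and Abcc9 with heart or skeletal muscle, Aqp1, Cd34, Mcam and Cspg4 with various epithelial, stromal or progenitor cells.

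Promoters of 4 members are printed first, chosen for how the members differed below: Acta2, Eng and Aqp1, which lay above both controls in both libraries labelled Otub2 knockout, and Cldn5, which did so in library 3 alone. Each window runs from 250 bases before to 50 bases after the RefSeq start site, 5′ to 3′, and the members matched 26 such windows for 22 genes. Capitals mark a CArG-like box, taken as CC, then 6 bases of which at least 5 are A or T, then GG, and the motif AGGAAG or its complement, a form of the site bound by ETS factors such as Erg. The windows are on build GRCm38.p6, at chr19:34255324-34255623 on the minus strand for Acta2, chr2:32646345-32646644 on the plus strand for Eng, chr6:55336049-55336348 on the plus strand for Aqp1 and chr16:18776597-18776896 on the plus strand for Cldn5.
Acta2: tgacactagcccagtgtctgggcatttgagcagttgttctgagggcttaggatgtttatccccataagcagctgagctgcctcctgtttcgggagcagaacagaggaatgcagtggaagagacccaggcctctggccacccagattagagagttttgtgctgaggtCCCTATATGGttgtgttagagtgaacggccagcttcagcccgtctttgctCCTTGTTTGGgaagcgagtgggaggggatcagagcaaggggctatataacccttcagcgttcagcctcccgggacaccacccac
Eng: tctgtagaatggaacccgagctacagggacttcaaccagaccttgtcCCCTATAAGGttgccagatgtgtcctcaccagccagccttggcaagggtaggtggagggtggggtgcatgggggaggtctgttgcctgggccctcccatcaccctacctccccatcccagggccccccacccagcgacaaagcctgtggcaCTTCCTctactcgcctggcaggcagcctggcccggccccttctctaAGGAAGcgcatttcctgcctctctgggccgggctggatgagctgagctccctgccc
Aqp1: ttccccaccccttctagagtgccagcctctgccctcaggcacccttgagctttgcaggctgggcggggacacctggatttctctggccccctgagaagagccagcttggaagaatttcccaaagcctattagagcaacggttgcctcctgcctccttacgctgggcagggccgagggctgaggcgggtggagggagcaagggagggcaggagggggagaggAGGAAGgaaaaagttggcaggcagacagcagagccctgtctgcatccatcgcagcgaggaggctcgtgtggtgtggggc
Cldn5: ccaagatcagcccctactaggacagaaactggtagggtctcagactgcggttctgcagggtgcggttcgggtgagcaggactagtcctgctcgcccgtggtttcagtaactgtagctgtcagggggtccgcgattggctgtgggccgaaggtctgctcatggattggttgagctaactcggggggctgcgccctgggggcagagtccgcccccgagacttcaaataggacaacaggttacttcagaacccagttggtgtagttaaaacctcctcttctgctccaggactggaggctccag

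The Acta2 window held 2 CArG-like boxes, whose first bases lie 84 and 34 bases before the start site, and no AGGAAG. The Eng window held 1 CArG-like box and 2 AGGAAG motifs, and the Aqp1 window held 1 AGGAAG motif. The Cldn5 window held neither. Among all 32851 promoter windows of the table, 9.98% held a CArG-like box and 35.35% held AGGAAG on either strand. The CArG-like box stood in 5 of the 26 windows of members, which were 4 of 16 of endothelial, 0 of 6 of pericyte and 1 of 4 of smooth muscle members. An exact CArG box, with 6 bases all A or T, stood in 1.63% of all windows and in 0 of the 26 windows of members. The looser form was adopted after that result was seen. AGGAAG stood in 10 of 16 windows of endothelial members, 0 of 6 of pericyte members and 0 of 4 of smooth muscle members. These matches describe letters in a short window and show no binding.

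Before the members, the libraries themselves were compared. Gene counts summed to 22719550 and 18911259 in libraries 3 and 4, against 12185345 and 11548186 in the controls. The headings of the count columns for libraries 3 and 4 read OE where their titles read KO, and the titles were followed. Otub2 (chromosome 12) was at 18.8 and 23.7 CPM in libraries 3 and 4, against 27.2 and 26.6 CPM in the controls. Its log2 fold change was -0.34, with an SE of 0.302, a 95% interval of -1.11 to 0.43 and an edgeR adjusted p of 0.485. A gene-level count does not check a deletion whose position is not given. Throughout, CPM means counts scaled to library size with TMM, a method that equalises the bulk of genes between libraries. Its factors were 0.638 and 1.11 for libraries 3 and 4, against 1.19 and 1.2 in the controls. All genes thus summed to 1568400 CPM in library 3 and 904650 CPM in library 4, against 842960 and 836120 CPM in the controls. A sum in CPM is therefore not a direct share of the counts of a library.

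Library 3 stood apart in markers of other tissues. A list of 12 cardiac muscle genes summed to 23905 CPM in library 3 and 45.2 CPM in library 4, against 76.1 and 75.8 CPM in the controls, and 12 salivary gland genes to 418550 and 28.4 CPM, against 9.82 and 8.04 CPM. The gland sum leaned on Mucl2, without which it was 41450 and 11.8 CPM, against 8.37 and 6.88 CPM. Of the gland list 4 and 2 genes were at 0 in libraries 3 and 4, against 3 and 3 in the controls, and of the cardiac list none was at 0. A list of 12 fibroblast genes summed to 804 and 537 CPM in libraries 3 and 4, against 187 and 227 CPM in the controls. A list of 12 keratinocyte genes, which mark the labelled epithelium, summed to 28183 and 39404 CPM, against 55762 and 50483 CPM. Its genes did not all go this way. In 6 of the 12 both libraries lay below both controls and in 1 both lay above, beside 33.1% and 26.9% of all genes tested. With both libraries together the log2 fold changes of the list ran from -1.76 to 1.72. Each result on the vascular markers is therefore given for library 3 and library 4 separately. The part of these other tissues in the results below was not tested. In bulk RNA, fewer cells of a type and less RNA per cell cannot be told apart.

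The vascular markers were highest in library 3. The 20 endothelial genes summed to 700 CPM in library 3 and 279 CPM in library 4, against 279 and 244 CPM in the controls. The 6 pericyte genes summed to 984 and 154 CPM, against 87.5 and 76.9 CPM, and the 6 smooth muscle genes to 187 and 40.9 CPM, against 18.6 and 20.2 CPM. Library 3 was thus 2.68-fold, 11.98-fold and 9.64-fold above the control mean for the endothelial, pericyte and smooth muscle sums. Library 4 was 1.07-fold, 1.88-fold and 2.11-fold above it. These folds hold for TMM-scaled CPM. In the deposited FPKM, which have no TMM scaling, the endothelial median was 3.43 and 2.28 in libraries 3 and 4, against 3.04 and 2.80 in the controls. The pericyte median was 5.23 and 4.90, against 1.715 and 1.57. The smooth muscle median was 1.52 and 0.476, against 0.531 and 0.566. The pericyte sum leaned on Des, the intermediate filament protein of muscle cells. Without Des it was 347 and 138 CPM, against 82.0 and 73.9 CPM. The smooth muscle sum leaned on Acta2, smooth muscle actin. Without Acta2 it was 68.1 and 10.05 CPM, against 13.4 and 12.9 CPM, so that library 4 lay below both controls.

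**Figure D1:**
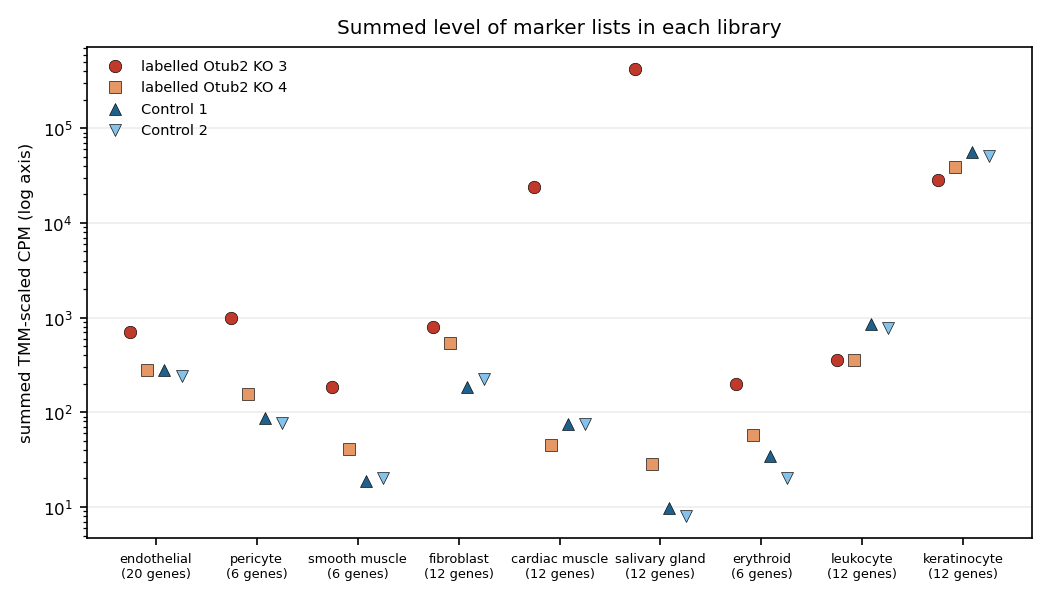
Summed TMM-scaled CPM (log axis) of the 3 groups of vascular markers and of 6 marker lists of other cells, with 1 point for each library and no error bars since each point is a single library. Library 3 is above both controls in the vascular, fibroblast, erythroid, cardiac muscle and salivary gland sums and below them in the keratinocyte and leukocyte sums.

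Member by member the same order was seen. Library 3 held the highest of the 4 values in 27 of 32 members, namely 17 of 20 endothelial, 4 of 6 pericyte and 6 of 6 smooth muscle genes. Over the 21916 genes tested, library 3 was the highest library in 29.7%. Library 4 was the lowest of the 4 in 13 of 32 members, against 35.3% of all genes tested. The 5 members whose highest value was not in library 3 were Sox18, Plvap, Cd34, Mcam and Cspg4. These orders hold for TMM-scaled CPM. The deposited FPKM follow total counts without TMM. In them library 3 was also not the highest for Flt1, Tek, Emcn, Esam, Robo4, Nos3, Lmod1 and Tagln. Flt1, for one, was at 2.78 and 2.31 FPKM in libraries 3 and 4, against 3.18 and 2.99 FPKM in the controls.

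**Figure D2:**
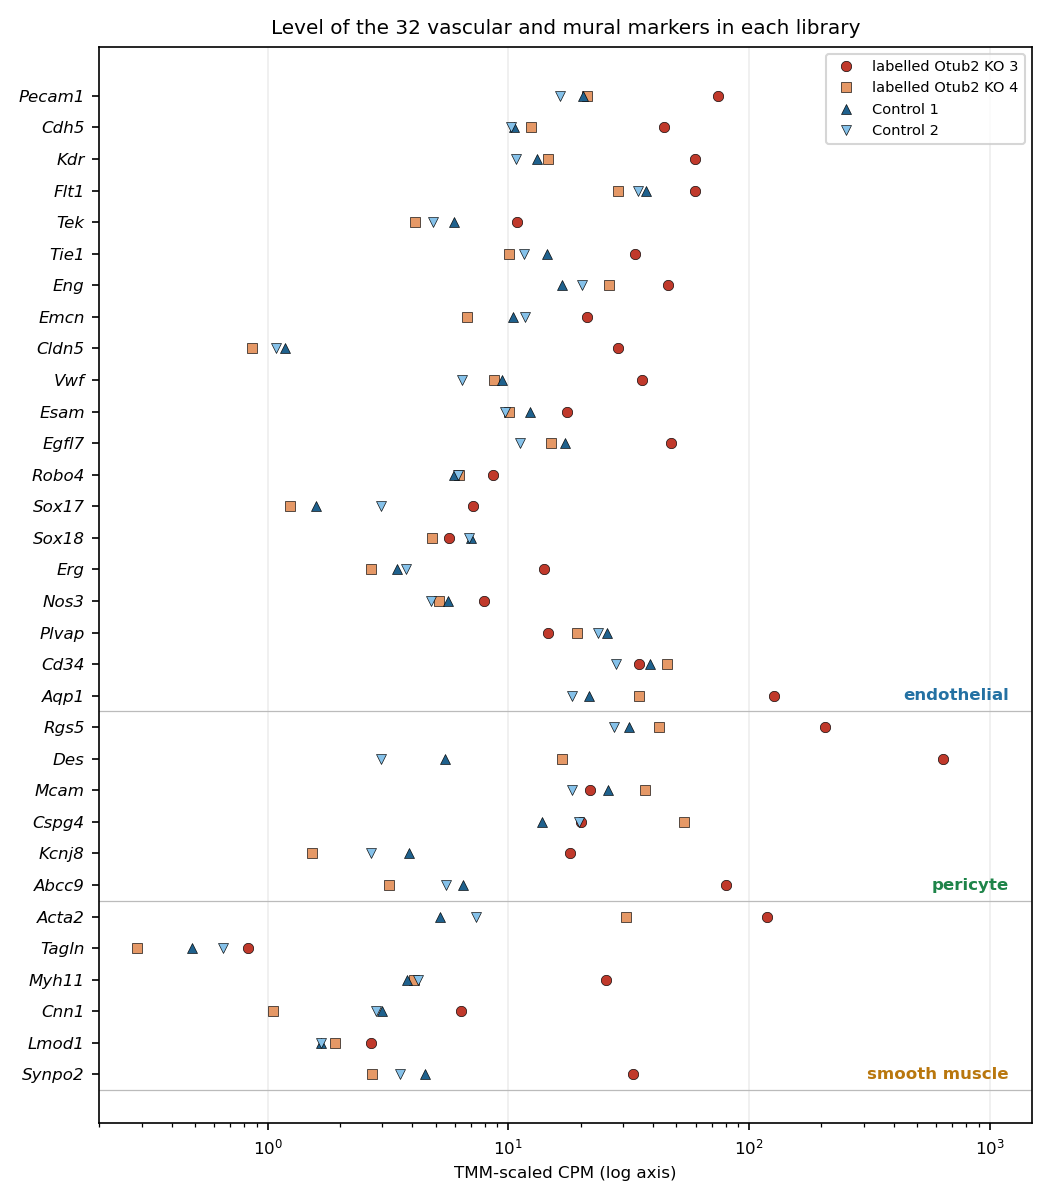
TMM-scaled CPM (log axis) of each of the 32 members in the 4 libraries, grouped as endothelial, pericyte and smooth muscle, with 1 point for each library. Library 3 lies to the right of the other 3 libraries in 27 rows, while library 4 lies close to the controls in most rows. Among the rows where library 4 lies apart, it is above the controls for Acta2, Des and Cspg4 and below them for Cnn1, Kcnj8 and Abcc9.

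With both libraries labelled Otub2 knockout set against both controls, no member passed the edgeR test at an adjusted p under 0.05. Of the 32 members 31 had enough counts to be tested, Tagln being left out, and 0 were called higher and 0 lower. Without adjustment, 4 members had a p under 0.05 (Acta2, Des, Aqp1 and Rgs5), all of them higher. The background is the same, since edgeR called 0 of 21916 genes in either direction (0%), and 2064 genes above and 3325 below the controls had an unadjusted p under 0.05. Voom of limma called 0 members too. DESeq2 called 4 members higher (Acta2, Des, Aqp1 and Cldn5) and 0 lower, beside 3.43% of all genes higher and 1.2% lower. The median log2 fold change of the tested members was 1.14, against 0.09 over all genes tested. That all-gene median differed by level. It was -1.27 in the 4450 genes under a mean of 1 CPM and -0.36 in the 5713 from 1 to 5 CPM. From 5 to 20 CPM it was 0.51 (4229 genes), from 20 to 100 CPM 0.41 (5897 genes) and above that 0.21 (1627 genes). Of the tested members, 3 lay from 1 to 5 CPM, 14 from 5 to 20, 13 from 20 to 100 and 1 above 100.

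In rank, 11 of the 31 tested members had both libraries labelled Otub2 knockout above both controls, and 2 had both below. Over all genes tested those shares were 26.9% above and 33.1% below. The 11 were Pecam1, Cdh5, Kdr, Eng, Robo4, Aqp1, Rgs5, Des, Cspg4, Acta2 and Lmod1, and the 2 below were Sox18 and Plvap. This count moved with the scaling, to 3 above and 2 below with upper-quartile factors and to 7 above and 6 below with total gene counts. Over all genes tested the shares were then 10.4% above and 48.5% below with upper-quartile factors, and 8.82% above and 42.9% below with total gene counts. The background also moved with the filter. With only genes at a mean of at least 5 CPM kept, 10 of 28 members lay above and 2 below. Over all genes kept, 5050 then lay above and 1393 below, so that above was the commoner order there. Genes tested in the main fit numbered 4229 from 5 to 20 CPM, 5897 from 20 to 100 CPM and 1627 above that. Beside these numbers, the 10 of 28 members above are no larger a share than that of all genes at this level.

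Set alone against the controls, library 3 had 22 of 31 tested members called higher by edgeR and 1 lower. Among all 23380 genes tested in that fit, 22.4% were called higher and 12.7% lower. Library 4 had 5 of 31 called higher and 3 lower, where 18.8% of 23181 genes were called higher and 22% lower. The members had a median log2 fold change of 1.64 over the controls in library 3, where all genes of the fit had -0.10. In library 4 the members had 0.05 and all genes -0.14. A lone library has no replicate, so these fits take the spread from the 2 controls and assume that library 3 or 4 varies as little as they do. Both comparisons share the controls.

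**Figure D3:**
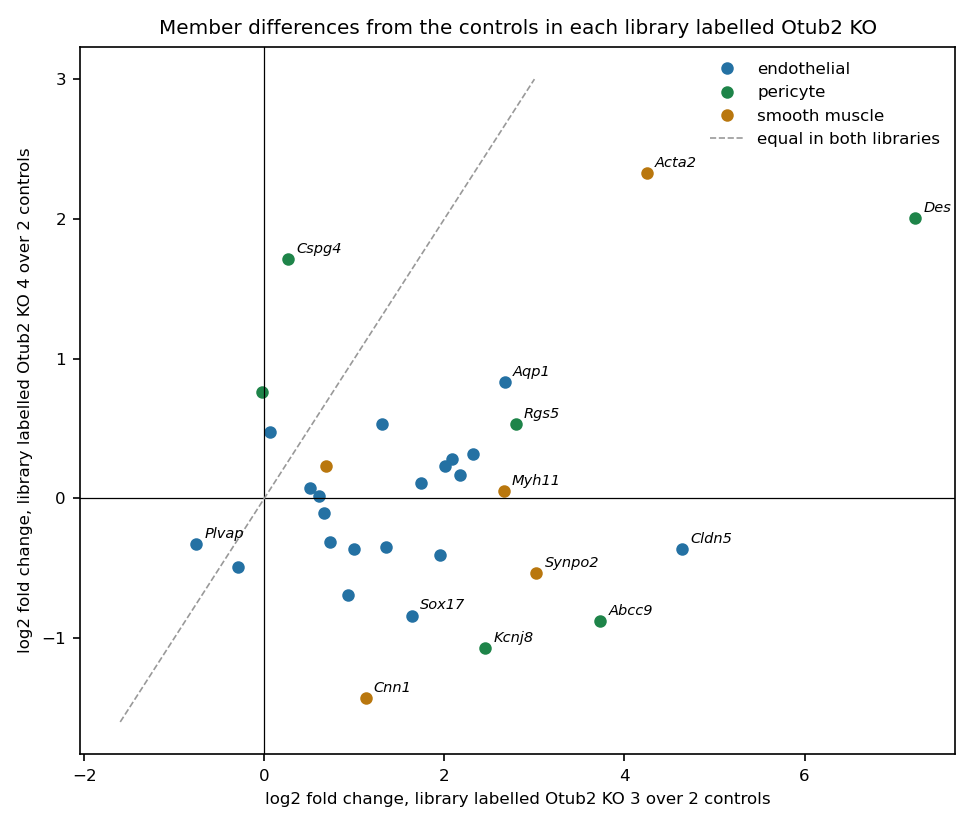
Log2 fold change of each tested member in library 3 (horizontal axis) and in library 4 (vertical axis), each over the same 2 controls, coloured by group, with a dashed line where both would be equal. Most members lie right of 0 and near 0 on the vertical axis. Acta2 and Des are far from 0 on both axes, and Cspg4 lies higher on the vertical axis than on the horizontal one.

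Library 3 was also tested directly against library 4, under the same assumption. Of 32 members 21 were higher in library 3 and 1 was lower, beside 16.6% and 8.71% of the 25627 genes tested in this fit. The 21 were 13 endothelial, 4 pericyte and 4 smooth muscle genes, and the 1 was Cspg4. The median log2 fold change of the members was 1.74, against 0.17 over all genes. With 3 other scalings 19 to 21 members were called higher and 1 to 4 lower.

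**Figure D4:**
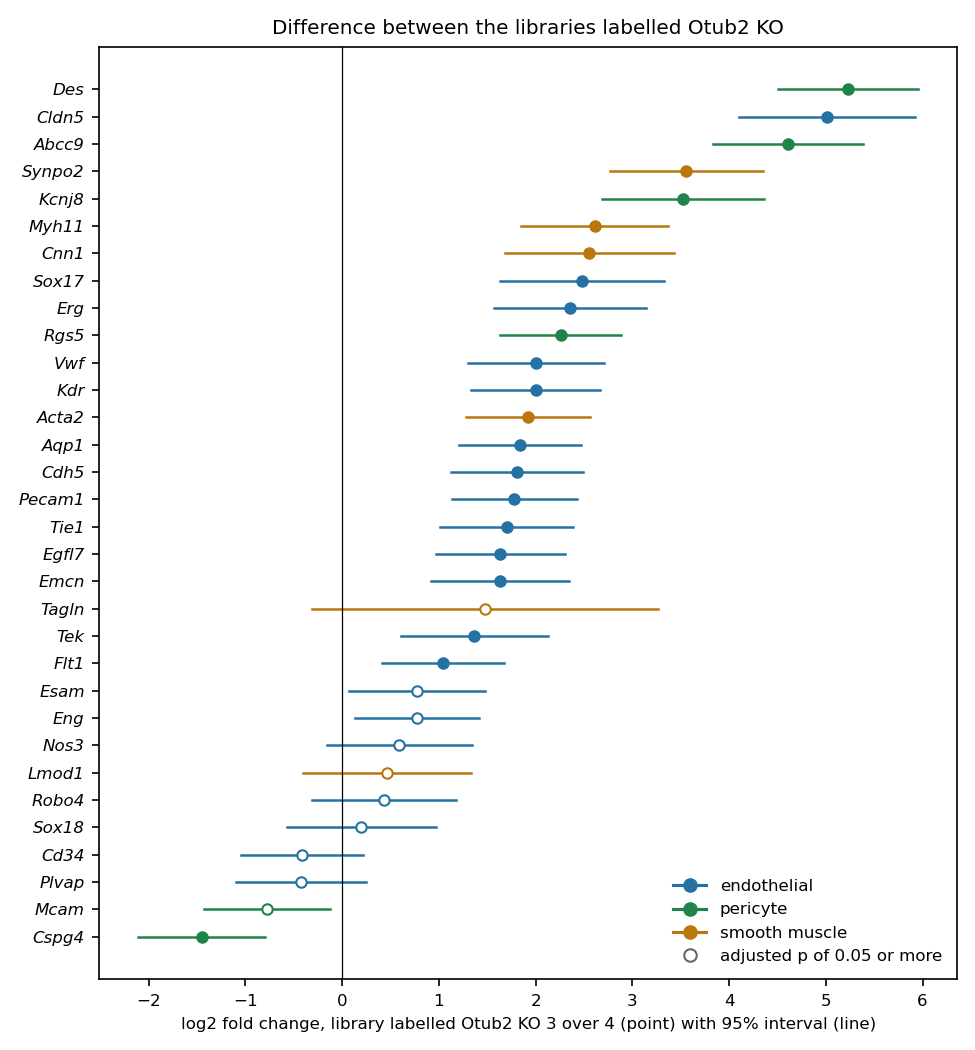
Log2 fold change of library 3 over library 4 for each of the 32 members, as a point with its 95% interval, ordered by size and coloured by group. Filled points have an edgeR adjusted p under 0.05. Des, Cldn5 and Abcc9 are highest, and Cspg4 is the only filled point below 0.

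The junction and adhesion proteins of endothelium were among the members higher in library 3. Pecam1, an immunoglobulin-type adhesion protein of endothelial junctions, was at 74.4 and 21.2 CPM in libraries 3 and 4, against 20.5 and 16.4 CPM in the controls. Cdh5, the endothelial cadherin, was at 44.5 and 12.4 CPM, against 10.6 and 10.3 CPM. In both, library 4 lay just above the controls and library 3 about 4-fold above them (4.04-fold and 4.27-fold over the control mean). The edgeR adjusted p in library 3 was 1.61e-12 for Pecam1 and 1.15e-12 for Cdh5, and in library 4 it was 0.524 and 0.457. With both libraries together the log2 fold change was 1.38 for Pecam1 (SE 0.624, adjusted p = 0.234) and 1.45 for Cdh5 (SE 0.646, adjusted p = 0.230). Esam, another adhesion protein of endothelial junctions, was at 17.5 and 10.0 CPM, against 12.3 and 9.70 CPM, and passed in neither library.

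Cldn5, the main claudin of endothelial tight junctions, set library 3 apart from all others. It had 414 and 18 counts in libraries 3 and 4, against 17 and 15 counts in the controls, or 28.6 and 0.861 CPM, against 1.18 and 1.09 CPM. Library 3 was 25.3-fold above the control mean, while library 4 had about as many counts as each control. The log2 fold change was 4.64 in library 3 (SE 0.348, edgeR adjusted p = 1.34e-38) and -0.36 in library 4 (SE 0.540, adjusted p = 0.591). With both libraries together it was 3.69 (SE 1.55, 95% interval -0.25 to 7.63, adjusted p = 0.216), an interval that spans 0.

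Of the receptors, Kdr, the main signalling receptor for VEGF, was at 59.8 and 14.6 CPM in libraries 3 and 4, against 13.1 and 10.8 CPM in the controls. Flt1, which binds VEGF and limits its signal, was at 59.6 and 28.5 CPM, against 37.2 and 34.8 CPM. Library 3 was therefore 4.996-fold above the control mean for Kdr and 1.66-fold for Flt1, and both passed in that library (edgeR adjusted p = 7.72e-16 and 0.0245). With both libraries together Kdr had a log2 fold change of 1.63 (SE 0.694, adjusted p = 0.218). For Flt1 library 4 lay below both controls, without passing (adjusted p = 0.373). Tek, which binds angiopoietins, was at 10.8 and 4.11 CPM, against 5.95 and 4.85 CPM, and its relative Tie1 at 33.6 and 10.1 CPM, against 14.5 and 11.7 CPM. Both were higher in library 3 (adjusted p = 0.00862 and 1.10e-05) and below both controls in library 4. Eng, a co-receptor for TGF-beta family ligands, was at 45.9 and 26.3 CPM, against 16.7 and 20.3 CPM, and passed in library 3 only (adjusted p = 1.61e-05, and 0.121 in library 4). With both together its log2 fold change was 0.96 (SE 0.382, adjusted p = 0.205). The library 3 over library 4 difference of Eng did not pass (log2 fold change 0.77, 95% interval 0.13 to 1.42, adjusted p = 0.0675). Robo4, a guidance receptor of endothelium, had 8.63 and 6.27 CPM, against 5.95 and 6.15 CPM, and passed in neither.

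Secreted and surface products of endothelium moved unevenly. Vwf, the clotting glycoprotein stored in endothelial cells, was at 35.9 and 8.75 CPM in libraries 3 and 4, against 9.41 and 6.44 CPM in the controls. Egfl7, a secreted vascular protein, was at 47.6 and 15.0 CPM, against 17.2 and 11.2 CPM. Emcn, a sialomucin of venous and capillary endothelium, was at 21.3 and 6.74 CPM, against 10.5 and 11.7 CPM. All of these were higher in library 3 (edgeR adjusted p = 4.47e-13, 3.19e-09 and 0.00592) and none passed in library 4. Nos3, endothelial nitric oxide synthase, was at 7.94 and 5.17 CPM, against 5.60 and 4.78 CPM, and did not pass. Of its annotated exon bases 32.3% overlap another gene.

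Plvap, which forms the diaphragms of fenestrated capillaries, was the one endothelial member called lower in library 3. It was at 14.6 and 19.2 CPM in libraries 3 and 4, against 25.7 and 23.5 CPM in the controls, so both libraries lay below both controls. The log2 fold change was -0.75 in library 3 (SE 0.299, edgeR adjusted p = 0.0366) and -0.33 in library 4 (SE 0.295, adjusted p = 0.363). Plvap had the highest FPKM of all 32 members in both controls, at 14.9 and 13.8, against 4.64 and 10.6 in libraries 3 and 4. FPKM, which the authors deposited, divides by gene length and so allows levels of different genes to be set side by side within a library.

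The ETS family member Erg, a regulator of endothelial genes, had 14.0 and 2.68 CPM in libraries 3 and 4, against 3.46 and 3.76 CPM in the controls. Sox17, of the SOX family, had 7.11 and 1.24 CPM, against 1.59 and 2.97 CPM. Both were higher in library 3 (edgeR adjusted p = 2.52e-08 and 1.18e-05) and not in library 4. Sox18, of the same SOX group, did not follow Sox17. It was at 5.66 and 4.83 CPM, against 6.99 and 6.88 CPM, below both controls in both libraries without passing in either (adjusted p = 0.517 and 0.216). Its library 3 over library 4 difference was 0.20 on the log2 scale (95% interval -0.57 to 0.97), against 2.48 (1.63 to 3.33) for Sox17.

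Aqp1 and Cd34 mark endothelium less strictly. Aqp1, a water channel of capillary endothelium and several epithelia, was at 128 and 34.9 CPM in libraries 3 and 4, against 21.7 and 18.3 CPM in the controls. Both libraries were above both controls and both passed alone, with log2 fold changes of 2.67 (SE 0.265, edgeR adjusted p = 2.78e-22) and 0.83 (SE 0.281, adjusted p = 0.0115). With both together it was 2.02 (SE 0.640, 95% interval 0.39 to 3.65, adjusted p = 0.173). Cd34, a sialomucin also carried by progenitor and stromal cells, was at 34.9 and 45.7 CPM, against 38.9 and 27.9 CPM. Its values overlapped between the groups and it passed in neither library.

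The 6 pericyte genes fell into different patterns. Rgs5, a regulator of G-protein signalling typical of pericytes, was at 207 and 42.2 CPM in libraries 3 and 4, against 31.9 and 27.6 CPM in the controls. Its log2 fold change was 2.79 in library 3 (SE 0.260, edgeR adjusted p = 2.94e-25) and 0.53 in library 4 (SE 0.277, adjusted p = 0.106), and 2.06 with both together (SE 0.750, adjusted p = 0.189). Kcnj8 and Abcc9 lie next to each other on chromosome 6 and encode the pore and the regulatory subunit of an ATP-sensitive potassium channel of pericytes and smooth muscle. Kcnj8 was at 18.0 and 1.53 CPM, against 3.87 and 2.68 CPM, and Abcc9 at 80.0 and 3.21 CPM, against 6.5 and 5.5 CPM. Both were higher in library 3 (5.499-fold and 13.3-fold over the control mean, adjusted p = 4.98e-13 and 2.50e-37). Both were lower in library 4 (0.467-fold and 0.534-fold, adjusted p = 0.0155 and 0.0290). With both libraries together Abcc9 had a log2 fold change of 2.79 (SE 1.36, adjusted p = 0.257).

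Des had the widest spread of all members. It had 9239 and 348 counts in libraries 3 and 4, against 79 and 41 counts in the controls, or 638 and 16.6 CPM, against 5.47 and 2.97 CPM. Both libraries were above both controls, library 3 by 151-fold and library 4 by 3.95-fold over their mean. By edgeR, Des had an adjusted p of 8.67e-118 in library 3, 2.49e-09 in library 4 and 0.166 with both together (log2 fold change 6.27, SE 1.78, 95% interval 1.74 to 10.81). The cardiac genes Myh6 and Actc1, the heart myosin heavy chain and heart actin, were at 9282 and 2726 CPM in library 3 and at 0.431 and 0.909 CPM in library 4. In the controls Myh6 was at 3.67 and 4.34 CPM and Actc1 at 1.66 and 2.46 CPM. Skeletal muscle, which also makes Des, was followed by 12 genes that summed to 426 and 70.8 CPM in libraries 3 and 4, against 29.2 and 29.5 CPM in the controls. Of that list 10 genes had enough counts to be tested in library 3 alone and 11 in library 4 alone. Their median log2 fold changes were -1.172 and 1.201, beside -0.10 and -0.14 over all genes. In library 3 the sum of the list was thus above the controls while its median gene was below them. The part of either muscle in the level of Des was not tested.

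Mcam and Cspg4 were the pericyte genes highest in library 4. Cspg4, the NG2 proteoglycan, was at 20.1 and 53.8 CPM in libraries 3 and 4, against 13.8 and 19.7 CPM in the controls. Mcam, an adhesion protein of vessels and other cells, was at 21.95 and 36.9 CPM, against 26.0 and 18.5 CPM. In library 4 both passed, with log2 fold changes of 1.71 for Cspg4 (SE 0.275, edgeR adjusted p = 1.67e-08) and 0.76 for Mcam (SE 0.280, adjusted p = 0.0208). In library 3 neither did (adjusted p = 0.505 and 0.959). With both together Cspg4 had a log2 fold change of 1.14 (SE 0.544, adjusted p = 0.249). Library 3 was lower than library 4 in Cspg4 (log2 fold change -1.45, SE 0.335, adjusted p = 0.000134), and the difference in Mcam did not pass (-0.78, 95% interval -1.43 to -0.13, adjusted p = 0.0695).

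Among smooth muscle genes, Acta2, smooth muscle actin, was higher in both libraries. It had 1724 and 645 counts in libraries 3 and 4, against 75 and 101 counts in the controls, or 119 and 30.9 CPM, against 5.19 and 7.31 CPM. Both libraries lay above both controls, by 19.0-fold and 4.94-fold over their mean, and library 3 lay above library 4. The log2 fold change was 3.58 with both together (SE 0.726, 95% interval 1.74 to 5.43). This was the lowest p of the 31 tested members, at an edgeR adjusted p of 0.166 and a DESeq2 adjusted p of 8.56e-05. Alone, library 3 gave 4.25 (SE 0.284, edgeR adjusted p = 2.13e-48) and library 4 gave 2.33 (SE 0.295, adjusted p = 2.45e-13). Acta2 is made by activated fibroblasts as well as smooth muscle. Of the 12 fibroblast genes, 8 had both libraries above both controls and 0 had both below, beside 26.9% and 33.1% of all genes tested. The median log2 fold change of this list was 1.927 for library 3 alone and 1.246 for library 4 alone. Over all genes these medians were -0.10 and -0.14. Not every gene of the list rose, since Thy1 was lower in library 3 and Dpt was lower in library 4. The part of fibroblasts in the level of Acta2 was not tested.

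Of the other smooth muscle genes, Myh11, Cnn1 and Synpo2 did not follow Acta2 in library 4. Myh11, smooth muscle myosin heavy chain, was at 25.4 and 4.07 CPM in libraries 3 and 4, against 3.80 and 4.2 CPM in the controls. Cnn1, calponin, was at 6.35 and 1.05 CPM, against 2.97 and 2.82 CPM. Synpo2, an actin-bundling protein of smooth and striated muscle, was at 32.9 and 2.73 CPM, against 4.50 and 3.55 CPM. All 3 were higher in library 3 (edgeR adjusted p = 1.86e-16, 0.00399 and 4.17e-22). In library 4 Cnn1 was lower (log2 fold change -1.43, SE 0.410, adjusted p = 0.00244), while Myh11 and Synpo2 did not pass (adjusted p = 0.911 and 0.198). Lmod1, a leiomodin that nucleates actin, was at 2.69 and 1.91 CPM, against 1.66 and 1.67 CPM, and passed in neither library. With both libraries together the log2 fold change was 1.88 for Myh11 (SE 0.895, adjusted p = 0.250), 2.14 for Synpo2 (SE 1.13, adjusted p = 0.280), 0.34 for Cnn1 (SE 0.881, adjusted p = 0.814) and 0.46 for Lmod1 (SE 0.467, adjusted p = 0.536). The values of Cnn1 and Lmod1 turned negative with upper-quartile factors, at -0.14 and -0.0046.

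Tagln, usually an abundant smooth muscle transcript, was nearly missing from the count table. It had 12 and 6 counts in libraries 3 and 4, against 7 and 9 counts in the controls, too few for the comparison with the controls. In the GENCODE annotation 67.9% of its exon bases are shared with other genes, among them Pcsk7. How such shared reads were counted is not given in the sources used here, so its low count is uncertain, and its part in this value was not tested. The difference between libraries 3 and 4 did not pass (log2 fold change 1.48, 95% interval -0.31 to 3.27, edgeR adjusted p = 0.251).

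Most members were scarce but above the level of genes that these cells are not known to use. As such a level, chosen after the table was seen, 1738 olfactory and vomeronasal receptor genes had a median FPKM of 0.0217 and 0.0248 in libraries 3 and 4, against 0.0867 and 0.0773 in the controls. Their sum was 330 and 208 CPM, against 611 and 507 CPM, so this floor lay lower in library 3 and in library 4. The 95th percentile of these genes was exceeded by 32 of 32 members in libraries 3 and 4, against 31 of 32 in each control, the exceptions being Tagln in Control 1 and Synpo2 in Control 2. The members' median FPKM was 3.43 and 2.01, against 1.72 and 1.65. What the higher floor in the controls adds to the members with few counts was not tested.

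**Figure D5:**
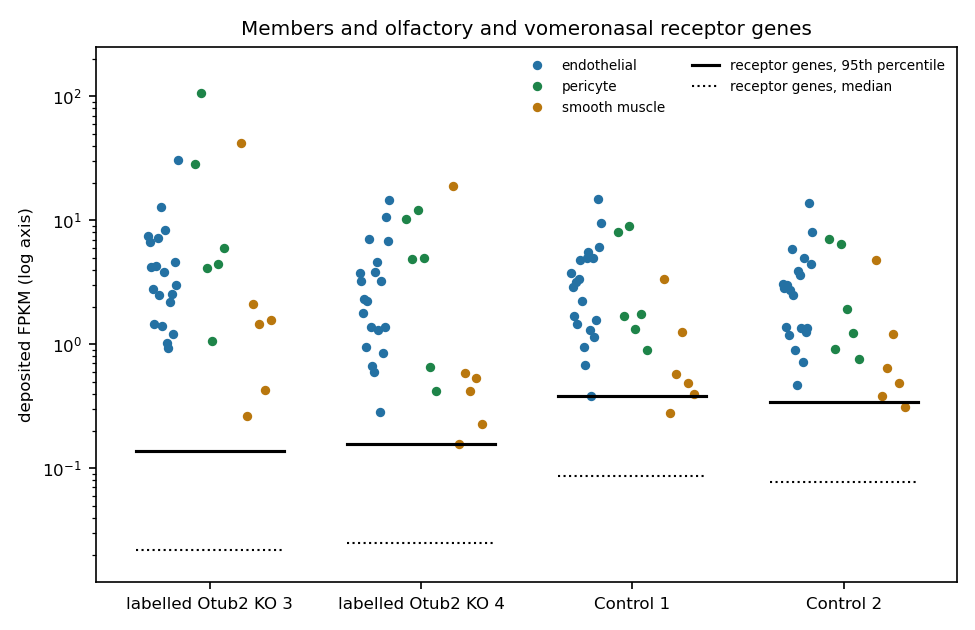
Deposited FPKM (log axis) of the 32 members in each library, coloured by group, with the median (dotted line) and 95th percentile (solid line) of 1738 olfactory and vomeronasal receptor genes. The receptor lines are higher in both controls, where Tagln in Control 1 and Synpo2 in Control 2 lie below the 95th percentile and Sox17 lies on it in Control 1.

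By FPKM the order of the members differed between libraries. Des (107), Acta2 (42.1), Aqp1 (30.5) and Rgs5 (28.6) had the highest FPKM in library 3. In library 4 they were Acta2 (19.0), Aqp1 (14.5), Mcam (12.1) and Plvap (10.6). In the controls Plvap led, followed by Aqp1 at 9.50 and 8.10. Des ranked at 1 of the 32 in library 3 and at 9 in library 4, against 17 and 24 in the controls. These ranks rest on single libraries, and the members behind the leaders are close to one another.

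Other genes of the vessel wall were counted from lists drawn up by function. Their counts stand beside the shares over all genes given above, which are 22.4% higher and 12.7% lower in library 3, 18.8% higher and 22% lower in library 4, and 26.9% above and 33.1% below both controls in both libraries. Of 24 further endothelial genes, all tested, edgeR called 15 higher and 1 lower in library 3 and 0 higher and 7 lower in library 4, and 5 lay above and 3 below both controls in both libraries. The count lower in library 4 and the count above both controls are near or under those shares. Podxl, a surface sialomucin, was at 55.2 and 14.4 CPM in libraries 3 and 4, against 13.4 and 12.5 CPM in the controls, and Cd93, a lectin-like surface protein, at 28.9 and 15.8 CPM, against 9.89 and 11.4 CPM. Podxl and Cd93 passed in library 3 (adjusted p = 4.66e-13 and 4.53e-06) and not in library 4 (0.629 and 0.0959). Icam1, to which leukocytes adhere, had 24.2 and 19.3 CPM, against 12.4 and 14.2 CPM, and Cldn15, a claudin, at 0.621 and 1.196 CPM, against 2.98 and 2.10 CPM. None of the 24 passed by edgeR with both libraries together. Without adjustment 1 had a p under 0.05, Cldn15, which was lower.

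Vascular ligands differed from this in library 4. Of 20 ligand genes, 7 of 20 tested were called higher by edgeR and 3 lower in library 3, and 10 of 19 higher and 1 lower in library 4. Both libraries were above both controls in 10 of the 19 and below in 4. Pgf, placental growth factor, had 5.04 and 10.6 CPM in libraries 3 and 4, against 2.28 and 1.88 CPM in the controls, and Bmp6 at 12.1 and 17.9 CPM, against 5.19 and 6.30 CPM. Both passed in library 3 (adjusted p = 0.00156 and 0.00402) and in library 4 (1.97e-11 and 6.18e-07). Cxcl12, a stromal chemokine, was at 55.2 and 5.45 CPM, against 2.91 and 2.17 CPM, and Vegfb at 72.1 and 15.3 CPM, against 9.20 and 7.82 CPM. None of the 19 tested passed by edgeR with both libraries together, and without adjustment 4 had a p under 0.05, all higher.

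Of 18 receptors that act in vessels, edgeR called 9 higher and 1 lower in library 3 and 3 higher and 3 lower in library 4. Both libraries were above both controls in 4 of the 18 and below in 2. The counts of library 4 and those above and below both controls are near or under the shares over all genes. Plxnd1, which binds semaphorins, had 58.1 and 20.3 CPM in libraries 3 and 4, against 11.6 and 16.1 CPM in the controls, and Acvrl1, a receptor for BMP ligands, at 13.7 and 11.1 CPM, against 5.88 and 6.44 CPM. Cxcr4, which binds Cxcl12, had 1.52 and 3.40 CPM, against 6.43 and 6.73 CPM, below both controls in both libraries. Notch3, which pericytes and smooth muscle use, was at 131 and 63.4 CPM, against 143 and 188 CPM. None of the 18 passed by edgeR with both libraries together, and without adjustment 1 had a p under 0.05, Plxnd1, which was higher.

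Of 12 further pericyte-associated genes, 5 of 11 tested were called higher and 2 lower in library 3, and 3 higher and 2 lower in library 4. Both libraries were above both controls in 2 of the 11 and below in 2. The counts lower in library 3 and those of library 4 are near the shares over all genes. Ndufa4l2, a mitochondrial protein, was at 57.4 and 93.0 CPM in libraries 3 and 4, against 29.7 and 23.2 CPM in the controls, and Angptl4 at 5.32 and 7.32 CPM, against 2.01 and 1.09 CPM. Both are known to respond to low oxygen in other cells too. Cox4i2, a respiratory subunit, was at 1.04 and 0.478 CPM, against 3.39 and 2.82 CPM, and Anpep, a membrane peptidase, at 52.1 and 14.9 CPM, against 17.9 and 9.20 CPM. None of the 11 passed by edgeR with both libraries together, and without adjustment Ndufa4l2 and Angptl4 (higher) and Cox4i2 (lower) had a p under 0.05.

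Of 20 genes of the contractile apparatus and its serum response factor pathway, 11 were called higher and 1 lower in library 3, and 12 higher and 1 lower in library 4. Cald1, caldesmon, was at 263 and 366 CPM in libraries 3 and 4, against 75.1 and 113 CPM in the controls. Tpm1, tropomyosin, was at 2665 and 350 CPM, against 154 and 173 CPM, and Myl9, a regulatory myosin light chain, at 19.6 and 3.83 CPM, against 1.52 and 1.16 CPM. Mkl2, a coactivator of serum response factor, had 49.98 and 56.4 CPM, against 24.8 and 32.1 CPM. These 4 were among 7 of the 20 with both libraries above both controls, and 0 had both below. The list summed to 4586 and 3754 CPM, against 1420 and 1738 CPM, and without Tpm1 to 1921 and 3404 CPM, against 1267 and 1565 CPM. None of the 20 passed by edgeR with both libraries together, and without adjustment 6 had a p under 0.05, all higher.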

How the data were processed

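RNA-seq was compared between 2 libraries labelled Otub2 knockout and 2 wild-type controls. The authors deposited raw read counts per gene, which are whole numbers, and an FPKM for each count, per the file headers. Per the submitters' processing notes, HISAT2, DESeq and the build GRCh38 were used, with no version or role given. GRCh38 is a human build, yet the IDs are mouse Ensembl IDs, and 54409 of 54446 occur in the GENCODE mouse annotation, release 21 (GRCm38), used for positions and exon overlaps. For the counting tool and its strand setting nothing is stated per the labels. The 14785 unannotated features took 1.29% and 0.914% of counts in libraries 3 and 4, against 2.84% and 2.82% in the controls, and were left out. No column of per-sample values was unused.

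Counts were tested over all genes kept by filterByExpr with the quasi-likelihood test of edgeR 4.0.16 (TMM, R 4.3.3) and Benjamini-Hochberg adjustment at 0.05. Each SE is the log2 fold change divided by the root of F, and intervals cover 95%. A lone library was assumed to vary like the controls. DESeq2 1.42.0, voom of limma 3.58.1, other scalings and filters, and leaving out each library were alternatives. Olfactory and vomeronasal receptor genes, the CArG-like box and sums without a leading gene were added after seeing the data. Scripts were tested on simulated data. Older symbols were matched through the RefSeq gene table, and promoters came from RefSeq. Members and lists were chosen with earlier results of these data known. Full statistics were given for the members with the smallest p in each group, and up to 4 genes were named from each other list of vessel genes.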

Additional observations from a re-analysis of the deposited data

How the results depend on the processing

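No paired analysis was possible because the numbers 3 and 4 of the libraries labelled Otub2 knockout are not shared with the numbers 1 and 2 of the controls. The count of members called higher was 1 with total gene counts and 4 with DESeq2, against 0 in the main comparison. Leaving out 1 library in turn, it ran from 0 to 22, and that called lower from 0 to 3. It was 22 and 1 without library 4, 5 and 3 without library 3, and 0 and 0 without either control. Over all genes, calls higher and lower were 51 and 1892 with total gene counts, 6 and 3 with no filter on low counts, and 751 and 262 with DESeq2, and they ran from 0 to 5243 and from 0 to 5096 as each library was left out. Voom, DESeq2's size factors in edgeR, upper-quartile factors, a mean of at least 5 CPM and keeping unannotated features left all these counts at 0.

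Members with both libraries labelled Otub2 knockout above both controls were 3 with upper-quartile factors and 7 with total gene counts, and 6 lay below with total gene counts. Over all genes 2284 and 1932 lay above under these 2 scalings. With no filter 6940 lay above and 16935 below, and with a mean of at least 5 CPM 5050 lay above and 1393 below. Members lower in library 3 than in library 4 were 2 with DESeq2's size factors and 4 with total gene counts. The median log2 fold change over all genes was -0.38 with upper-quartile factors and -0.36 with total gene counts, against 0.09 with TMM, and that of the members 0.66 and 0.47, against 1.14.

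Log2 fold changes that turned negative with both libraries together were as follows. With upper-quartile factors they were -0.18 for Flt1, -0.012 for Tek, -0.14 for Emcn, -0.15 for Esam, -0.17 for Robo4, -0.14 for Nos3, -0.20 for Cd34, -0.061 for Mcam, -0.14 for Cnn1 and -0.0046 for Lmod1. With total gene counts they were -0.30 for Flt1, -0.17 for Tek, -0.33 for Emcn, -0.23 for Esam, -0.21 for Robo4, -0.20 for Nos3, -0.13 for Cd34, -0.40 for Cnn1 and -0.049 for Lmod1. With a mean of at least 5 CPM they were -0.029 for Flt1, -0.025 for Robo4 and -0.060 for Cd34, and with voom -0.21 for Cnn1. The cause was not tested. As each library was left out, the log2 fold change ran from -0.31 to 0.72 for Flt1, -0.37 to 0.999 for Tek, -0.34 to 1.36 for Tie1, -0.69 to 0.93 for Emcn, -0.36 to 4.64 for Cldn5, -0.11 to 0.67 for Esam, -0.84 to 1.64 for Sox17, -0.40 to 1.95 for Erg, -0.023 to 0.76 for Mcam, -1.07 to 2.45 for Kcnj8, -0.88 to 3.73 for Abcc9, -1.43 to 1.12 for Cnn1 and -0.53 to 3.02 for Synpo2. In all of these but Mcam the negative end is the fit without library 3. Members with under 30 counts in a control, such as Cldn5, Sox17, Lmod1 and Tagln, are limited by depth.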

Other observations

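Globin transcripts and Alas2, of haem synthesis in red cells, lay above both controls in both libraries. Hbb-bs, a beta globin, was at 95.6 and 25.5 CPM in libraries 3 and 4, against 13.8 and 9.92 CPM in the controls, and Hba-a1, an alpha globin with a near-identical copy that makes its count uncertain, at 66.1 and 25.4 CPM, against 16.5 and 7.60 CPM. All 5 tested genes of a list of 6 had both libraries above both controls, and edgeR called 5 higher in library 3 and 3 in library 4. Skeletal actin Acta1 was at 128 and 18.2 CPM, against 1.59 and 0.941 CPM. The 12 markers of white blood cells had a median log2 fold change over the controls of -0.42 in library 3 and -1.22 in library 4. All genes had -0.10 and -0.14. They summed to 353 and 354 CPM, against 848 and 777 CPM, and without S100a8, which epithelium also makes, to 151 and 65.3 CPM, against 96.9 and 79.0 CPM.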
